A study of Homo sapiens with 9 samples.

Results

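Metallothioneins and the zinc regulators MTF1 and SLC30A1 were followed in PANC-1 cells, an established human pancreatic tumour cell line, at 3 times of nutrient and oxygen deprivation. The 9 genes were 7 metallothioneins (MT1A, MT1E, MT1F, MT1G, MT1M, MT1X and MT2A), the transcription factor MTF1 and the zinc exporter SLC30A1, out of 27800 gene symbols in the table. They were chosen by name with their levels in these libraries already known, so their own values and changes between days are a description. The limma calls listed for them below are a description too and are not read as tests. All 9 were among the 14144 tested symbols, those reaching 1 TPM in 3 or more of the 9 libraries, although MT1G only just did, with 3 libraries above 1 TPM, 1 at 0.798 TPM and 5 listed at 0.

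The 9 libraries, whose columns in the table are headed WT, were of total RNA from 3 samples each at day 0, day 2 and day 14. All carried the same description of the deprivation medium, DMEM with glucose at 2.5 mM, fetal calf serum at 0.5% and amino acids at 20% of their standard level, with no other treatment. No label told how cells were maintained before day 0 or whether replicates came from separate cultures, and no undeprived cells were given for the later days. Deprivation thus cannot be told apart from time in culture, and the p-values below reflect the variation among the replicate libraries alone, part or all of which may be technical. Fewer cells with a message and less message per cell also cannot be told apart in bulk RNA. Levels are in TPM, estimated transcripts scaled for transcript length and for the library's total. TPM keeps no depth, so no counting interval is given.

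Metallothioneins are small cysteine-rich proteins that hold zinc, copper and cadmium ions in clusters of thiolates. When free zinc rises in a cell, MTF1 takes it up through its zinc fingers, binds metal response elements and switches on the metallothionein genes and SLC30A1, whose product pumps zinc out across the plasma membrane. The same metallothionein promoters are also known to answer glucocorticoids, oxidants and low oxygen.

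Day 0 replicate 2 stood apart. Across tested genes it correlated with the other day 0 libraries at 0.870 and 0.875, against 0.933 to 0.972 for the other 7 same-day pairs. On the log2(TPM + 1) scale it differed from the mean of day 0 replicates 1 and 3 by 1.70 for MT2A, 1.75 for MT1E, 2.20 for MT1X and 2.44 for MT1A. The median of the same difference was 1.28 over 88 other coding genes of similar transcript length (396 to 829 nt) with a day 0 mean of at least 100 TPM. A floor on the day 0 mean can favour genes that are high in this library. Over 3149 tested genes of at least 5000 nt, chosen without such a floor, the median was -1.12. The difference was -1.95 for SLC30A1 and -1.72 for MTF1, whose transcripts are that long. The short metallothionein messages were high and the long messages of SLC30A1 and MTF1 low in this library, and the part of transcript length or RNA quality in this was not tested. Changes of the 9 genes against day 0 are therefore also given without it. The symbol MIR6723 alone held 16.2% to 32.6% of the TPM of a library. Over all tested genes the median log2 change was 0.23 at day 2 and 0.44 at day 14 against day 0, and 0.24 at day 14 against day 2. Among called genes 62.4%, 80.4% and 50.8% were higher in these comparisons, against 47.1%, 46.4% and 28.2% after median-ratio scaling and 47.9%, 49.6% and 35.2% after quantile normalization. The epithelial markers KRT8, KRT18, KRT19 and EPCAM were present in all libraries, between 25.5 and 2253 TPM. Of 11 markers of other cell types only CD68 (21.3 to 68.6 TPM) and COL1A1 (8.29 to 72.6 TPM) reached the test, and DCN, CPA1, INS and GCG were listed at 0 in all libraries.

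The promoters are shown first, because the metal response elements to which MTF1 binds lie there. The 250 bases before the RefSeq start site of each gene (GRCh38.p14, read 5′ to 3′ on the gene's strand) are in lower case, and capitals mark the core of the metal response element. The core was searched as TGCACNC and TGCGCNC on both strands, and matches on the other strand appear as their reverse complement. MT2A and MT1X are shown as the most abundant metallothionein and the one whose share of the family differed most between day 0 and day 2 among the MT1 copies, and SLC30A1 as the target outside the metallothionein cluster.
MT2A, chr16:56608334-56608583, plus strand: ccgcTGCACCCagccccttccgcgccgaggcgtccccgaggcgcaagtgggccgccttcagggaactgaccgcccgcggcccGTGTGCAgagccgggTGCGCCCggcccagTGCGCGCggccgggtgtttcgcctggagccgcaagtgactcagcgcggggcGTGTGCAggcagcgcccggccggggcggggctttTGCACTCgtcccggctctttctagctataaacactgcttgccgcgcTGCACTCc
MT1X, chr16:56682220-56682469, plus strand: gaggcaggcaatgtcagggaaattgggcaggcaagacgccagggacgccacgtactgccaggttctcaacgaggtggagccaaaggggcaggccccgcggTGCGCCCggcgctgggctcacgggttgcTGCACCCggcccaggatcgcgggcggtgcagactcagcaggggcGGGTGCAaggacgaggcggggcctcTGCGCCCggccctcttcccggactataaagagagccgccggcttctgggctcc
SLC30A1, chr1:211579162-211579411, minus strand: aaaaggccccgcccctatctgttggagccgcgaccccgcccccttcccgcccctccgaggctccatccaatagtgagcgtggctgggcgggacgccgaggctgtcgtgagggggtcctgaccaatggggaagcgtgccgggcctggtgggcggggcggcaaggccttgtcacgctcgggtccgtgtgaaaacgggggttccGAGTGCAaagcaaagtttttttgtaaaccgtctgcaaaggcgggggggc

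MT2A held 7 core matches in this window and MT1X 4, while SLC30A1 held 1 and MTF1 none. The table matched 4 of the 9 genes. Of 35116 promoter windows of the same length, 24.8% held at least 1 match, 0.370% at least 4 and 0.0513% at least 6. Among further metallothioneins with a listed promoter, MT1H held 8. MT1B and MT4, both listed at 0 TPM in all libraries, held 3 each, and 1.58% of all windows held at least 3. The matches nearest to the start in MT1X and in MT2A (apart from 1 that ends 2 bases before the MT2A start) begin 53 and 54 bases before it, and the single SLC30A1 match begins 49 bases before its start. A core of the hypoxia response element (ACGTG or GCGTG, both strands) occurred once in MT2A, once in MT1X, 3 times in SLC30A1 and in 2 places in MTF1, and 43.2% of all windows held at least 1. A sequence match is a description of these letters and not a measured binding site.

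**Figure D1:**
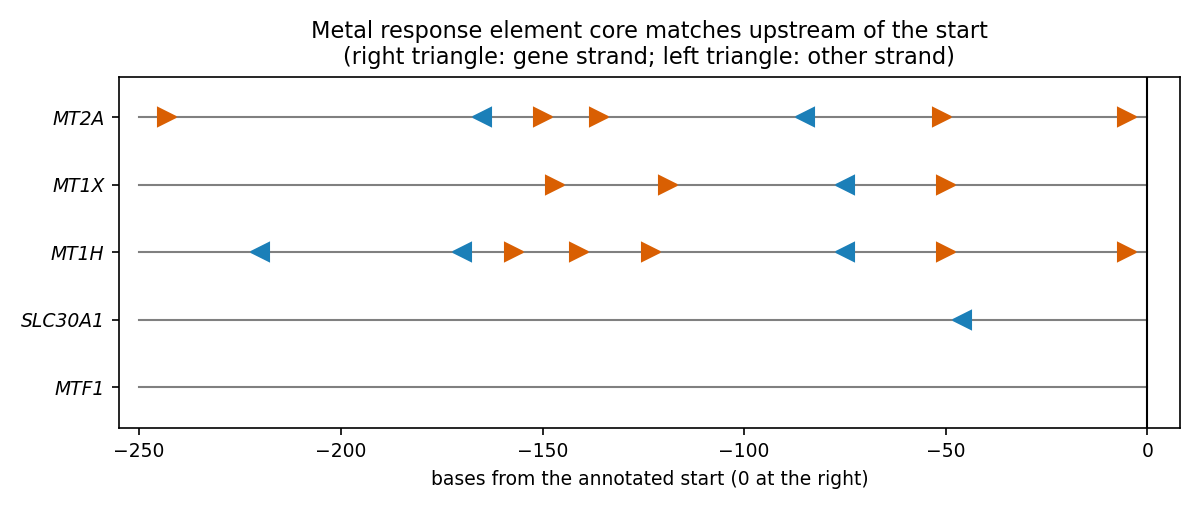
Each line is the stretch before the annotated start of a gene, and each triangle is a metal response element core match at its distance from the start in bases. MT2A has 7 matches, MT1X 4, MT1H 8, SLC30A1 1 and MTF1 none, and MT1B and MT4 are not drawn.

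The second sequence feature that bears on the values is how alike the copies are. Over the 21 pairs of the 7 metallothioneins, the coding sequences (GENCODE release 29, GRCh38) were 88.7% to 94.6% identical, with a median of 91.9%. The closest pair was MT1A and MT1E, which moved in opposite directions at day 2 against day 0 (log2 change -3.01 and 2.48). At day 14 MT1A was below day 0 in all libraries, while MT1E overlapped day 0.

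A read quantifier can separate the copies only where they differ. Of the 31-base words in the coding sequence, 64.7% in MT1A, 50.6% in MT1E, 48.1% in MT1X and 44.7% in MT1G were in no transcript of another metallothionein in the table. Over whole transcripts these shares were 81.7%, 84.4%, 94.97% and 76.7%. The split of reads between copies is therefore uncertain, and the authors' transcript set was not given in the sources used here.

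MT2A, the major metallothionein of most human tissues, was by far the most abundant. It stood at 4174, 13101 and 3911 TPM in day 0 replicates 1, 2 and 3, at 6606, 9525 and 6388 TPM at day 2, and at 1795, 1838 and 3612 TPM at day 14. Its rank among all symbols was between 3 and 5 in the day 0 and day 2 libraries, and 41, 37 and 9 in day 14 replicates 1, 2 and 3. All 3 day 14 libraries lay below all day 0 and day 2 libraries, while day 2 and day 0 overlapped only because of day 0 replicate 2. The log2 change was 0.30 ± 0.49 (SE) at day 2 and -1.39 ± 0.49 at day 14 against day 0, and without day 0 replicate 2 these were 0.87 and -0.82. The day 2 value changed sign with scaling (-0.05 after median-ratio scaling, -0.38 after quantile normalization). Day 14 differed from day 2 by -1.69 ± 0.49.

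MT1E and MT1X, inducible copies from the same cluster, were the next most abundant at day 2. MT1E was at 158, 608 and 206 TPM at day 0, at 1334, 2032 and 1289 TPM at day 2, and at 256, 346 and 656 TPM at day 14. MT1X was at 47.4, 254 and 62.7 TPM at day 0, at 1225, 1850 and 1251 TPM at day 2, and at 77.8, 199 and 482 TPM at day 14. For both genes every day 2 library lay above every other library, and day 14 overlapped day 0. MT1E was higher at day 2 than at day 0 by 2.48 ± 0.53 on the log2 scale (3.07 without day 0 replicate 2), and MT1X by 3.94 ± 0.75 (4.67 without it). At day 14 the changes against day 0 were 0.52 ± 0.53 for MT1E (1.10 without replicate 2, and -0.09 after median-ratio scaling) and 1.09 ± 0.75 for MT1X (1.82 without replicate 2, 0.63 without replicate 1, 0.49 after median-ratio scaling, and 1.75 and 0.44 without day 14 replicates 1 and 3).

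MT1F, a less abundant inducible copy, had the largest log2 change against day 0 of the 8 genes for which one is given. It was at 3.33, 8.36 and 0.977 TPM at day 0, at 110, 131 and 91.1 TPM at day 2, and at 10.2, 22.2 and 46.1 TPM at day 14. The 3 days did not overlap at any point, with day 0 lowest and day 2 highest. The log2 change was 4.68 ± 0.63 at day 2 and 2.41 ± 0.63 at day 14 against day 0, and 5.24 and 2.97 without day 0 replicate 2.

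MT1M and MT1G were the scarce copies. MT1M was at 0.409, 8.88 and 1.33 TPM at day 0, at 9.75, 12.9 and 6.50 TPM at day 2, and at 2.19, 0.627 and 7.80 TPM at day 14. Day 0 replicate 2 lay inside the day 2 range, so the groups overlapped, and the log2 change at day 2 was 1.70 ± 0.78, or 2.52 without that library. At day 14 it was 0.16 ± 0.78 against day 0, and -0.30 after median-ratio scaling. MT1G was listed at 0 in all 3 day 0 libraries, at 0.798, 2.63 and 1.61 TPM at day 2, and at 0, 1.54 and 0 TPM at day 14. No fold is given for MT1G because its reference was listed at 0.

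MT1A was lower at both later days. It was at 123, 665 and 120 TPM at day 0, at 18.5, 34.2 and 27.3 TPM at day 2, and at 16.9, 22.7 and 30.6 TPM at day 14. All 6 day 2 and day 14 libraries lay below all 3 day 0 libraries, with day 2 and day 14 overlapping. The log2 change was -3.01 ± 0.62 at day 2 and -3.18 ± 0.62 at day 14 against day 0, and -2.19 and -2.37 without day 0 replicate 2. Its log2 change at day 14 against day 2 was -0.17 ± 0.62, and 0.02 without day 2 replicate 2.

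SLC30A1, the exporter that MTF1 controls, was highest at day 2. It was at 38.0, 8.92 and 36.6 TPM at day 0, at 176, 194 and 163 TPM at day 2, and at 43.3, 71.9 and 119 TPM at day 14. All day 2 libraries lay above all others, and all day 14 libraries above all day 0 libraries, although day 14 replicate 1 and day 0 replicate 1 were close. The log2 change was 2.87 ± 0.54 at day 2 and 1.58 ± 0.54 at day 14 against day 0, and 2.22 and 0.93 without day 0 replicate 2.

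MTF1 itself was low and varied little apart from 1 library. It was at 6.16, 1.10 and 5.71 TPM at day 0, at 6.07, 6.45 and 6.38 TPM at day 2, and at 7.13, 6.99 and 7.25 TPM at day 14. The log2 change was 0.65 ± 0.42 at day 2 and 0.80 ± 0.42 at day 14 against day 0, and without day 0 replicate 2 it was 0.07 and 0.23. Day 14 lay above day 2 in all libraries by only 0.15 on the log2 scale, and this difference was -0.07 after median-ratio scaling.

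**Figure D2:**
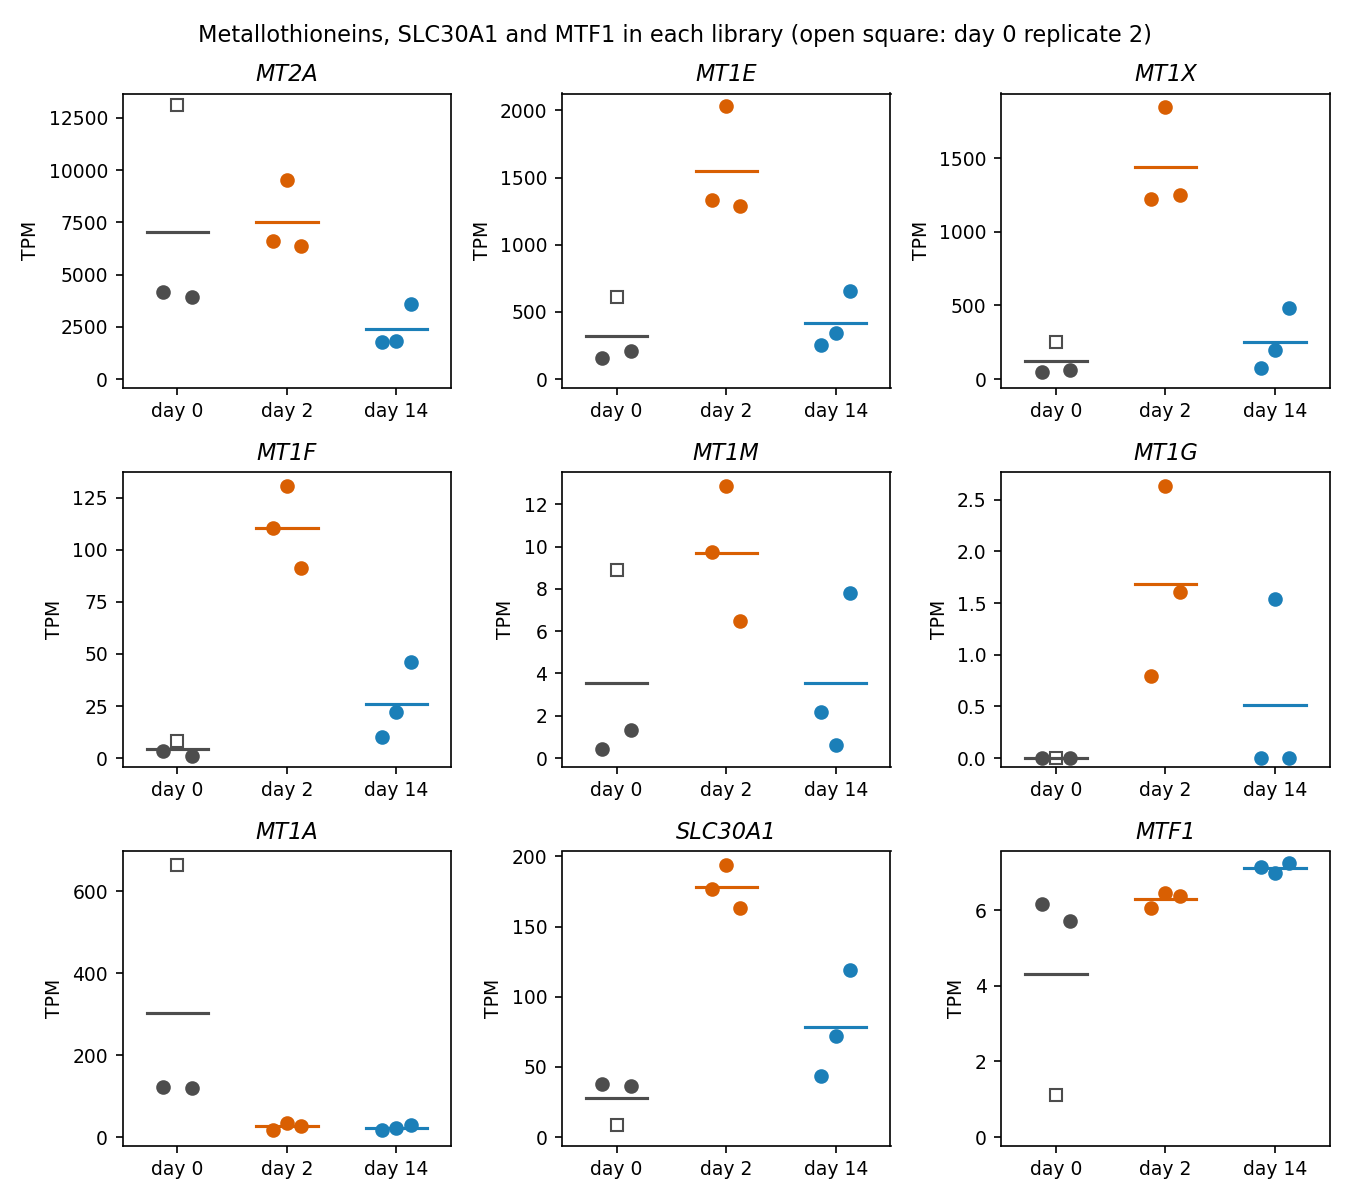
Each panel shows the TPM of a gene (y axis, linear) in the 9 libraries by day, with a point per library, a line at the mean of 3 and an open square for day 0 replicate 2. MT1E, MT1X, MT1F and SLC30A1 peak at day 2, MT1A is highest at day 0, and MTF1 lies between 5.71 and 7.25 TPM in the libraries other than day 0 replicate 2.

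By limma's moderated test, 5 of the 9 genes were called higher at day 2 than at day 0 (MT1E, MT1F, MT1G, MT1X and SLC30A1), where 19.2% of all tested genes were. The MT1G call is not a result. MT1G was listed at 0 in all day 0 libraries and passed the filter only through day 2 and day 14 libraries. MT1A was called lower, as were 11.5% of all tested genes. The same 5 and 1 had libraries that did not overlap, against 33.4% higher and 17.4% lower among all tested genes. At day 14 against day 0 MT1F was called higher (27.5% of all tested genes) and MT1A lower (6.72%), and libraries did not overlap for 3 genes in the higher direction (MT1F, MTF1 and SLC30A1, 42.5% of all) and 2 in the lower (MT1A and MT2A, 9.95%). Between day 2 and day 14 limma called 0 of the 9 after adjustment (0.212% of all genes were called higher and 0.205% lower), with 6 lower and 0 higher at an unadjusted p under 0.05. The share of all genes at that unadjusted threshold is not given here. Libraries did not overlap for MT1E, MT1F, MT1X, MT2A and SLC30A1 in the lower direction, against 7% of all tested genes, and for MTF1 in the higher, against 36.8%. These 5 lower genes were called when day 0 replicate 2 was left out, where 3848 of the 14144 tested genes were called (3307 higher), against 59 with all libraries. Nothing is read from these counts, or from how the calls held below, since the genes were picked with the values known. The day 2 calls of MT1A, MT1E, MT1F, MT1X and SLC30A1 held under all alternatives, while that of MT1G was lost with no filter and without day 0 replicate 1 or 3 or day 2 replicate 2 or 3. The day 14 call of MT1F was lost with no filter, after median-ratio scaling, after quantile normalization, in the fit of those days alone and without day 14 replicate 2 or 3. Leaving out day 0 replicate 2 added MT1M at day 2, and MT1E and MT1X at day 14, to the genes called higher. Over all 14144 tested genes it took the number called from 4348 to 6822 (3471 higher) at day 2. At day 14 that number went from 4841 to 6936 (4873 higher). The comparisons against day 0 share those 3 libraries. The median log2 change of the 9 genes was 1.70 at day 2 and 0.52 at day 14 against day 0, and -1.54 at day 14 against day 2, and without MT1G it was 2.09, 0.66 and -1.62.

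**Figure D3:**
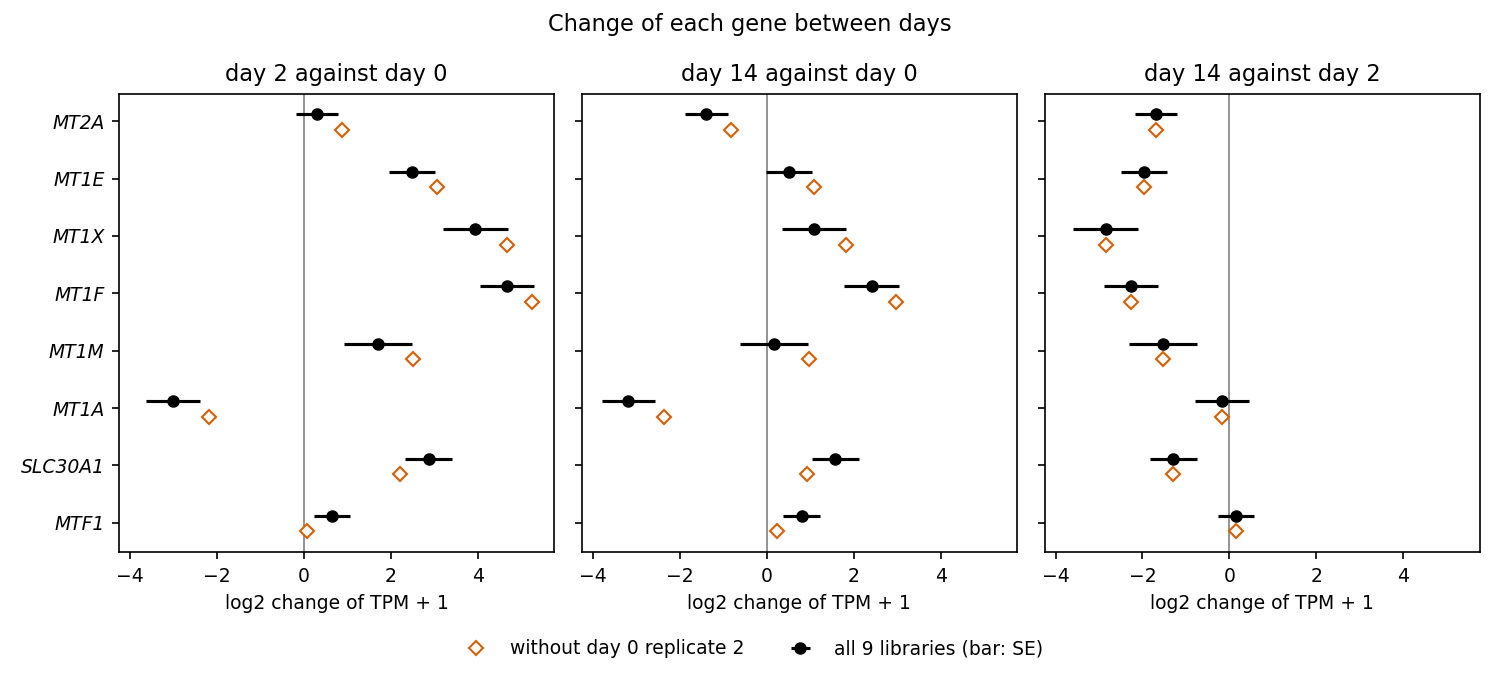
Each panel gives the log2 change of TPM + 1 between days (x axis) per gene (y axis), as black points with SE bars for all 9 libraries and open diamonds without day 0 replicate 2. MT1G is left out because it was listed at 0 at day 0. The metallothioneins move to the right and SLC30A1 and MTF1 to the left when that library is left out of the changes against day 0.

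The makeup of the family was also compared between days. The table held 16 metallothionein symbols, of which 5 (MT1B, MT1HL1, MT1IP, MT3 and MT4) were listed at 0 in all libraries. The brain-enriched MT3 and the squamous epithelial MT4 were thus not detected here. Summed over all symbols, metallothionein TPM was 5004, 16833 and 4790 at day 0, 9538, 13815 and 9317 at day 2, and 2342, 2600 and 5086 at day 14. Because TPM is divided by transcript length, which ranges from 396 to 829 nt among the 7 copies, the sum still depends in part on how reads were split. Its log2 change was 0.54 at day 2 (1.13, 0.25 and 0.22 without day 0 replicates 2, 1 and 3, 0.19 after median-ratio scaling and 0.04 after quantile normalization) and -1.23 at day 14 against day 0 (-0.64 without it). From day 2 to day 14 the log2 change was -1.77, and no library of the 2 days overlapped.

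Shares within the family are ratios inside a library, so a common scaling factor leaves them as they are. MT1E and MT1X together made up 4.94% ± 0.766 (SD, n = 3) of the summed TPM at day 0, 27.4% ± 0.645 at day 2 and 19.2% ± 4.33 at day 14. The values were 4.10% to 5.60% at day 0, 26.8% to 28.1% at day 2 and 14.3% to 22.4% at day 14, so the 3 days did not overlap. Day 0 replicate 2, with 5.12%, sat inside the range of the other day 0 libraries. MT2A held 81.0% ± 2.85 at day 0, 68.9% ± 0.345 at day 2 and 72.8% ± 3.35 at day 14. The balance of MT1E over MT1X went from 2.40 to 3.33 at day 0 down to 1.03 to 1.10 at day 2, and spread from 1.36 to 3.30 at day 14. MT1F went from 0.0456% ± 0.0234 at day 0 to 1.03% ± 0.113 at day 2 and 0.731% ± 0.259 at day 14.

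MT1L, which is not among the 9 genes and has no coding transcript in GENCODE, was likewise lower at both later days. MT1L was at 498, 2184 and 485 TPM at day 0, at 229, 217 and 257 TPM at day 2, and at 182, 168 and 251 TPM at day 14. Its log2 change was -1.79 at day 2 (limma adjusted p = 0.0317) and -2.03 at day 14 (limma adjusted p = 0.0181), with no overlap with day 0. Without day 0 replicate 2 these changes were -1.07 and -1.31, both still called. The day 2 call was lost without day 2 replicate 1, 2 or 3 (limma adjusted p = 0.0862, 0.0914 and 0.0750) and with a replicate block (0.0528). The day 14 call was lost without day 14 replicate 1 or 2 (0.0569 and 0.0608). Both were also lost with no filter (limma adjusted p = 0.0932 and 0.0582) and in the fits of 2 days alone (0.0770 and 0.0561). MT1A and MT1L together held 14.0% ± 2.54 of the family at day 0, 2.49% ± 0.623 at day 2 and 7.12% ± 1.497 at day 14, and no library of 1 day reached into the range of another. MT1L exceeded MT1A by 3.28 to 4.04 times at day 0 and by 6.35 to 12.4 times at day 2, so the pair did not change equally. Of the 31-base words of MT1L transcripts, 89.8% were in no other metallothionein.

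**Figure D4:**
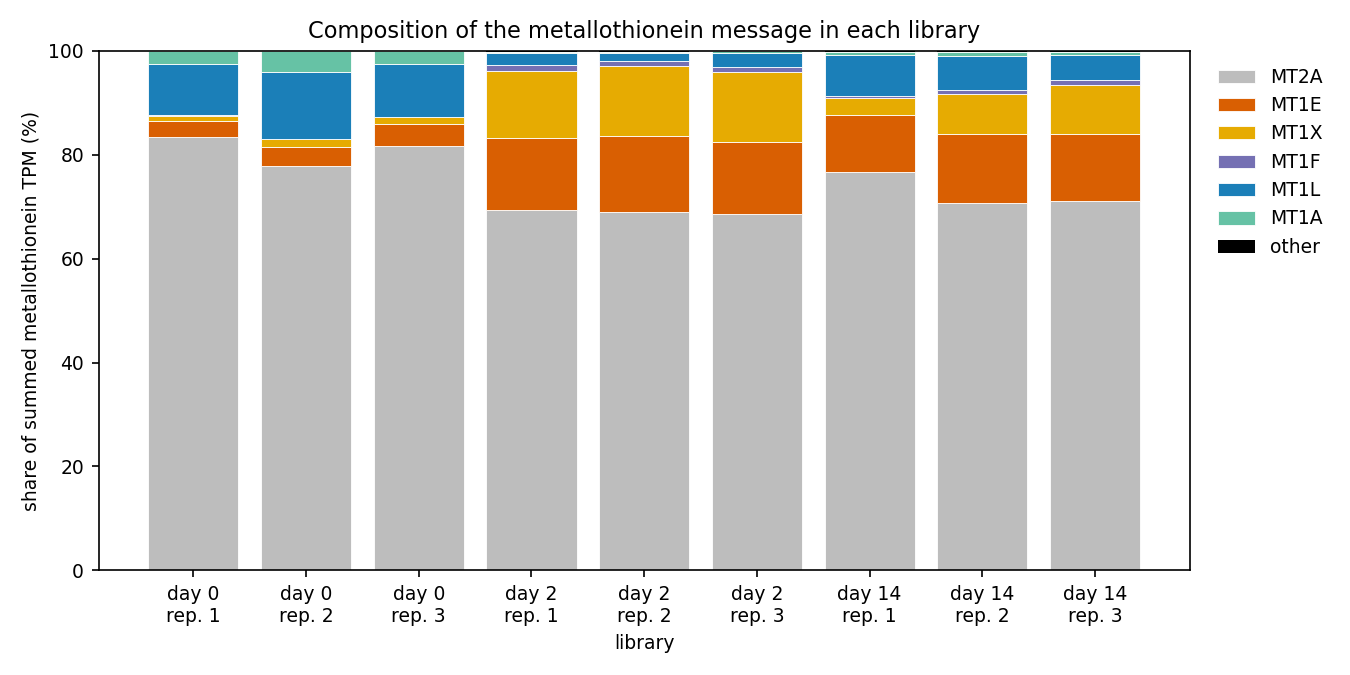
Each bar is a library and its coloured parts are the shares of the summed metallothionein TPM (y axis, percent) held by MT2A, MT1E, MT1X, MT1F, MT1L, MT1A and the other symbols. The parts for MT1E and MT1X add up to at most 5.60% at day 0 and at least 26.8% at day 2, while MT1A with MT1L goes from at least 12.4% to at most 3.05%.

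Among the remaining symbols MT1H, an inducible copy, was listed at 0 at day 0, at 1.26, 2.77 and 1.26 TPM at day 2, and at 0, 0 and 0.457 TPM at day 14. It passed the filter through the day 2 libraries alone, so no test is given. MT1DP, a pseudogene, was at 0.339 to 4.21 TPM at day 0, 3.24 to 7.72 TPM at day 2 and 0.589 to 1.96 TPM at day 14, and was not called at either day against day 0 (limma adjusted p = 0.195 and 0.577). Without day 0 replicate 2 MT1DP was called higher at day 2 (1.36, limma adjusted p = 0.0488), and its day 14 change went from -0.38 to 0.05. MT1JP reached 0.430 TPM in day 2 replicate 2 and was listed at 0 elsewhere.

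The other zinc transporters were described as a list. Of the 23 listed ZIP importers (SLC39 family, which bring zinc into the cytosol) and ZnT exporters (SLC30 family, which take it out or into vesicles), 16 were tested. At day 2 limma called 2 of these higher and 3 lower, where 19.2% of all tested genes were called higher and 11.5% lower. Without day 0 replicate 2 limma called 3 and 7 of them, and 6822 of the 14144 tested genes (3471 higher). With all 9 libraries the median log2 change of the 16 was 0.10, against 0.23 for all genes. SLC39A4, an importer of dietary zinc that is known to be taken off the surface when zinc is plentiful, went from 65.2 ± 24.5 to 22.9 ± 3.18 TPM (log2 change -1.42 ± 0.27 SE, limma adjusted p = 0.00577). SLC39A8, an importer of zinc and manganese that was named after its values were seen, went from 1.43 ± 0.216 to 0.280 ± 0.0666 TPM (log2 change -0.92). The fall of SLC39A4 was called under all alternatives. SLC39A8, counted among the 3 lower, reached 1 TPM only in the day 0 libraries and day 14 replicate 1. It passed the filter through the day where it was high, so no p is given for it. The fall of SLC39A3 (log2 change -0.98, limma adjusted p = 0.0396) and the rises of SLC39A13 (0.88, 0.0351, and 0.58 without day 0 replicate 2) and the ZnT exporter SLC30A9 (0.69, 0.0468) were each lost without any 1 of the day 2 libraries. They were also lost with a replicate block (limma adjusted p = 0.0736, 0.0664 and 0.103).

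At day 14 limma called 3 of the 16 higher and 0 lower against day 0, where 27.5% and 6.72% of all tested genes were called. At an unadjusted p under 0.05 the counts of the 16 were 6 and 2. Without day 0 replicate 2 limma called 5 and 0 of the 16, and 6936 of the 14144 tested genes (4873 higher). SLC39A13, an importer of the secretory pathway, went from 16.5 ± 5.62 to 36.2 ± 3.76 TPM (log2 change 1.14, limma adjusted p = 0.0121, and 0.56 after median-ratio scaling). SLC39A14, an importer of zinc, iron and manganese, was at 38.6, 16.5 and 35.5 TPM at day 0 and at 77.5, 59.9 and 55.4 TPM at day 14 (log2 change 1.14, limma adjusted p = 0.0216). This call was lost without day 14 replicate 1 or 2 (0.0746 and 0.0550) and with no filter (0.0538). It was also lost in the fit of those days alone (limma adjusted p = 0.0678) and with TPM without microRNA symbols (0.0666). SLC30A5, an exporter into the secretory pathway, went from 24.3 ± 3.74 to 44.4 ± 9.48 TPM (0.83, limma adjusted p = 0.0140), a call lost after median-ratio scaling (0.321) and in the fit of those days alone (0.0546). Between day 14 and day 2 limma called 0 of 16 (3 higher and 0 lower at an unadjusted p under 0.05). Without day 0 replicate 2 it called 7 of the 16 higher, and 3848 of the 14144 tested genes (3307 higher). SLC39A10, an importer whose gene MTF1 is known to repress, was at 10.4, 2.59 and 11.6 TPM at day 0, 6.95, 7.63 and 8.33 TPM at day 2, and 15.02, 12.7 and 12.8 TPM at day 14. It was not called at either day against day 0 (limma adjusted p = 0.871 and 0.151), and without day 0 replicate 2 it was lower at day 2 (limma adjusted p = 0.0161).

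**Figure D5:**
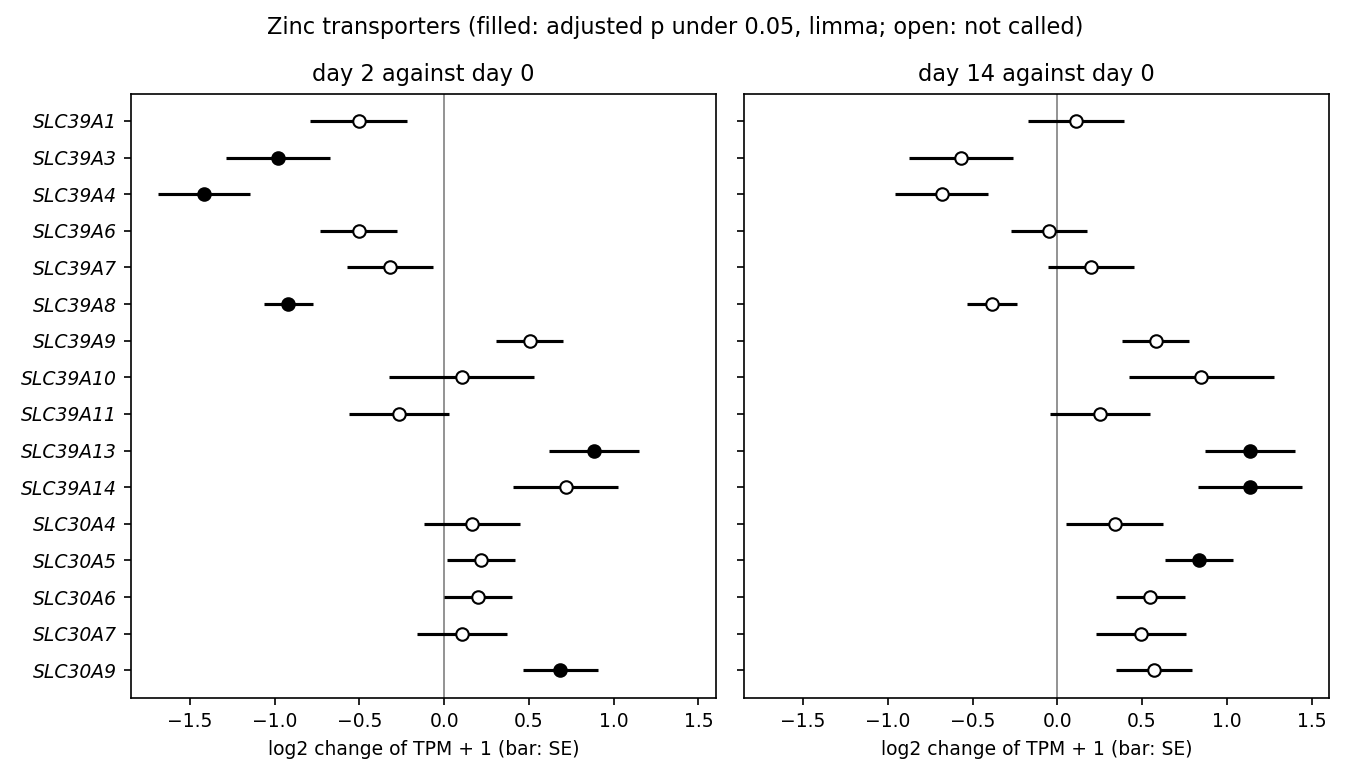
The log2 change of TPM + 1 against day 0 (x axis, bars are SE) is plotted for the 16 tested zinc transporters other than SLC30A1 at day 2 and day 14, filled where limma's adjusted p is under 0.05. At day 2 there are 3 filled points to the left and 2 to the right, and at day 14 there are 3 to the right.

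Of 6 tested genes reported elsewhere as further MTF1 targets, SLC39A10 among them, 2 rose and 2 fell at day 2, and 2 rose and 0 fell at day 14 (0 lower also at an unadjusted p under 0.05). Without day 0 replicate 2 these counts were 2 and 3, and 2 and 0. With all 9 libraries, 19.2% and 11.5% of all tested genes were called higher and lower at day 2, and 27.5% and 6.72% at day 14. In the fit without day 0 replicate 2, 6822 of 14144 genes were called at day 2 (3471 higher) and 6936 at day 14 (4873 higher). GCLC, the catalytic subunit of glutathione synthesis, was at 8.70, 8.72 and 11.2 TPM at day 0, at 96.7, 78.7 and 68.7 TPM at day 2, and at 22.1, 28.7 and 33.5 TPM at day 14 (log2 change 2.96 ± 0.22 at day 2, limma adjusted p = 0.000110). Day 2 lay above day 14 and day 14 above day 0 in all libraries, and day 0 replicate 2 did not stand apart. CSRP1, a LIM domain protein, rose by 1.23 at day 2 (limma adjusted p = 0.0124) and by 1.37 at day 14 (0.00748). The small selenoproteins SELENOW (-1.49, limma adjusted p = 0.00682) and SELENOH (-1.57, 0.0463) fell at day 2. SELENOH changed by -0.89 without day 0 replicate 2, and leaving out any single library of day 2 or day 14 ended the SELENOH call (limma adjusted p = 0.0601 to 0.121). PGF, a growth factor of the VEGF family, was not called (limma adjusted p = 0.932 and 0.824).

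Of 14 tested copper transport and chaperone genes limma called 3 higher and 3 lower at day 2 (3 and 7 without day 0 replicate 2), and 2 higher and 1 lower at day 14 (2 and 2 without it). The counts with all 9 libraries stand beside 19.2% higher and 11.5% lower at day 2, and 27.5% and 6.72% at day 14, among all tested genes. Those without day 0 replicate 2 stand beside 6822 of 14144 genes called at day 2 (3471 higher) and 6936 at day 14 (4873 higher). ATP7A, the copper-exporting ATPase, was at 3.91, 1.67 and 2.88 TPM at day 0, at 9.90, 10.4 and 9.88 TPM at day 2, and at 8.83, 9.78 and 9.12 TPM at day 14 (log2 change 1.58 ± 0.23 at day 2, limma adjusted p = 0.00180, and 1.47 at day 14, 0.00256). ATOX1, the chaperone that hands copper to ATP7A, went the other way, from 212 ± 89.1 to 56.7 ± 3.65 TPM at day 2 (-1.81 ± 0.27, limma adjusted p = 0.00206) and 78.4 ± 10.1 TPM at day 14 (-1.35, 0.00681). The copper importer SLC31A1 rose by 1.27 at day 2 (limma adjusted p = 0.0320) and by 1.56 at day 14 (0.0134). Without day 0 replicate 2 these changes were 0.77 and 1.06, both still called. Its day 2 call was lost without day 2 replicate 1, 2 or 3 (limma adjusted p = 0.0973, 0.0805 and 0.0804) or any 1 day 14 library (0.0503 to 0.0525). It was also lost with no filter (0.0820) and in the fit of those days alone (0.0850). With TPM without microRNA symbols both calls were lost (limma adjusted p = 0.0680 and 0.0508). The ferroxidase CP was at 0.426 to 1.41 TPM at day 0, 4.34 to 8.70 TPM at day 2 and 0.217 to 0.576 TPM at day 14. Its log2 change was 1.85 at day 2 against day 0 and -2.28 at day 14 against day 2. CP, counted among the 3 higher at day 2, reached 1 TPM only in the day 2 libraries and day 0 replicate 1. It passed the filter through the day where it was high, so its call is not a result and no p is given for it. SCO1, a copper chaperone of cytochrome oxidase, fell by 0.99 at day 2 (limma adjusted p = 0.00354).

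Of 7 tested genes that heavy metals induce together with metallothioneins, 2 rose and 1 fell at day 2, and 1 rose and 1 fell at day 14 (2 and 5, and 1 and 4, without day 0 replicate 2). Among all tested genes 19.2% rose and 11.5% fell at day 2, and 27.5% and 6.72% at day 14, with all 9 libraries. Without that library 6822 of the 14144 tested genes were called at day 2 (3471 higher) and 6936 at day 14 (4873 higher). HMOX1, which breaks down haem, measured 178, 364 and 1243 TPM in the day 14 libraries, after 1981 to 2845 TPM at day 2 and 47.7 to 81.9 TPM at day 0 (log2 change 5.07 ± 0.61 at day 2, limma adjusted p = 0.000754, and 2.65 at day 14, 0.0113). SRXN1, which repairs oxidised peroxiredoxins, rose by 1.55 at day 2 (limma adjusted p = 0.00258). HSPH1, a heat shock chaperone, fell from 72.6 ± 9.30 to 17.6 ± 0.809 TPM at day 2 (-1.98 ± 0.16, limma adjusted p = 0.000177) and was at 41.6 ± 3.25 TPM at day 14 (-0.78, 0.00746).

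Of 6 tested genes for the glucocorticoid receptor and its targets, limma called 4 higher at both days against day 0, and SGK1 lower at day 2 (-1.14, limma adjusted p = 0.0326), where 19.2% and 27.5% of all tested genes were called higher at the respective days and 11.5% lower at day 2. Without day 0 replicate 2, 6822 of the 14144 tested genes were called at day 2 (3471 higher) and 6936 at day 14 (4873 higher). In that fit the counts among the 6 genes were 4 higher and 2 lower at day 2, and 4 and 1 at day 14. The further lower gene was FKBP5, a co-chaperone of the receptor named after its values were seen, with -0.51 at day 2 and -0.25 at day 14 (limma adjusted p = 0.313 and 0.609), and -0.98 and -0.72 without that library (0.00184 and 0.00678). SGK1 was not called at day 2 without day 0 replicate 1 or 3, day 2 replicate 1, 2 or 3, or day 14 replicate 3 (limma adjusted p = 0.0518 to 0.114). TSC22D3 (GILZ) went from 4.53 ± 1.61 to 77.5 ± 11.6 TPM at day 2 and 53.5 ± 6.56 TPM at day 14 (log2 change 3.86 ± 0.23, limma adjusted p = 6.74e-05, and 3.33, 0.000134). The clock gene PER1 went from 2.41 ± 1.34 to 37.3 ± 5.87 and 27.9 ± 11.04 TPM (3.57 and 3.11, limma adjusted p = 0.000426 and 0.000853). The receptor NR3C1 and KLF9, named after their values were seen, completed the 4. NR3C1 had a limma adjusted p of 0.0148 at day 2, a call lost without day 2 replicate 3 (0.0529). KLF9 was at 0.0814 to 0.333 TPM at day 0 and passed the filter through the later libraries alone. Its place among the 4 is therefore not a result, and no p is given for it. TSC22D3 differed by -0.52 at day 14 against day 2 (limma adjusted p = 0.284).

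The 5 genes outside the family with the profile nearest to summed metallothionein TPM over the 9 libraries were EBP, C1QTNF12, CFD, CKB and FOXC2-AS1, out of 10060 with a mean of at least 5 TPM. Their centred log2 profiles differed from it by a root mean square of 0.45 to 0.56. EBP, an isomerase of cholesterol synthesis, was at 53.2, 121 and 61.8 TPM at day 0, 67.8, 70.1 and 64.5 TPM at day 2, and 24.8, 31.7 and 31.4 TPM at day 14. EBP, C1QTNF12, CKB and FOXC2-AS1 were highest in day 0 replicate 2, the library that stands apart, and CFD was higher in day 2 replicates 1 and 2.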

How the data were processed

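RNA of 9 PANC-1 samples, 3 each at day 0, day 2 and day 14, was sequenced. Expression was deposited by the authors as TPM for each gene symbol in a single table. Per the submitters' processing notes, Salmon and build hg19 were used, and the sources used here state neither its version, its transcript set nor its strand setting. TPM keeps no depth, and a few abundant entries lower all others.

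The 9 genes and the other lists were chosen with earlier results of these data known. Values were analysed as log2(TPM + 1), a scale that understates changes of low genes. Symbols with at least 1 TPM in at least 3 libraries were tested, 14144 of 27800. The two-sided test was limma 3.58.1 with its trend option (R 4.3.3), fitted to the 9 libraries together. Symbols with a Benjamini-Hochberg adjusted p under 0.05 over all those tested are called. The code was tested on simulated data. Sums and shares of metallothionein TPM were computed per library.

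Named genes are the 9 genes, every other metallothionein symbol, up to 2 called rises and 2 called falls per list and comparison, and the 5 genes nearest in profile. SLC39A8, SLC39A10, PGF, NR3C1, KLF9, FKBP5, KRT8 and MUC1 were added after their values were seen. Promoters are from RefSeq (GRCh38.p14) and coding sequences from GENCODE release 29, and neither gives coordinates in the authors' build. Alternatives covered pseudocount, filter, scaling, trend, a replicate block, fits of 2 days, each library left out and, chosen after seeing the data, TPM without microRNA symbols.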

Additional observations from a re-analysis of the deposited data

How the results depend on the processing

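The number of genes called at day 2 against day 0 was 4348, and 2707 to 6822 with 1 library left out. At day 14 against day 0 it was 4841, against 3214 with a mean of at least 5 TPM, 2927 in the fit of those days alone, and 3200 to 6936 with 1 library left out. At day 14 against day 2 it was 59, against 6 with a pseudocount of 0.1, 127 with a pseudocount of 5, 183 with no filter, 24 with a mean of at least 5 TPM, 131 after median-ratio scaling, 341 after quantile normalization, 2519 in the fit of those days alone, and 1 to 3848 with 1 library left out. The highest of each range came without day 0 replicate 2. Of 16 zinc transporters 5 were called at day 2 against day 0, against 3 with no filter, 8 after median-ratio scaling, 9 after quantile normalization, 2 in the fit of those days alone, 3 with TPM without microRNA symbols, and 2 to 10 with 1 library left out. Among these transporters 3 were called at day 14 against day 0, against 5 after quantile normalization, 1 in the fit of those days alone, and 2 to 5 with 1 library left out. For day 14 against day 2 the number of transporters was 0, against 4 in the fit of those days alone, and 0 to 7 with 1 library left out. The cause was not tested.

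Deviations from the day means gave no sign of pairing by replicate number, with correlations of -0.0795 to 0.0154 between same-numbered libraries. With 3 libraries per day this check cannot exclude a shared culture or batch, and no label tells of it. With a replicate block 3290, 3771 and 2 genes and, at day 2 against day 0, 2 zinc transporters were called. The summed metallothionein change kept its direction with any 1 library left out (0.22 to 1.13 at day 2 and -1.58 to -0.64 at day 14 against day 0, -2.12 to -1.56 between them). After median-ratio scaling and quantile normalization it was 0.19 and 0.04 at day 2, and -1.84 and -1.57 at day 14, against day 0. Depth is unknown, so low values such as those of MT1G carry no counting error.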

Other observations

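Among the day 14 libraries, replicate 1 was lowest and replicate 3 highest for 6 of the 9 genes (MT1A, MT1E, MT1F, MT1X, MT2A and SLC30A1), an order that 12% of all tested genes had. Replicate 3 was highest for 8 of the 9, against 22.8% of all tested genes. HMOX1 had the same order, with 178, 364 and 1243 TPM. The ratio of SLC30A1 to MTF1 was 6.06, 10.3 and 16.5 in these libraries, against 6.17 to 8.09 at day 0 and 25.6 to 30.1 at day 2. At day 2, replicate 2 was highest for 9 of the 9 genes, and for 63% of all tested genes.

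The epithelial keratins KRT8, KRT18 and KRT19 fell at both later days, while KRT7 was not called. KRT8 went from 1870 ± 351 (SD, n = 3) to 438 ± 27.7 TPM at day 2 and 501 ± 62.4 TPM at day 14, by -2.08 and -1.89 on the log2 scale (limma adjusted p = 0.000273 and 0.000439). MUC1, a membrane mucin, rose at day 2 by 1.39 (limma adjusted p = 0.00168).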
